A study of Mus musculus with 3 samples.

Results

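The genes described are the guidance ligands and receptors of vessels: semaphorins, plexins, neuropilins, ephrins, Eph receptors, Robo and Slit proteins, netrins and Unc5 receptors. They were taken from the gene rows of the deposited matrices by symbol alone, which gave 70 of 41605 rows, 67 of them protein-coding genes and 3 antisense RNAs at Plxna4. They were measured in single endothelial cells sorted from gastrocnemius muscle of C57BL/6N mice by fluorescence (CD31 present, CD45 and the dead-cell dye SYTOX blue absent) and sequenced with the 10x 3' kit. The 3 libraries stood for 1 group each. The running library came from mice housed singly with a wheel for 14 days, and the sedentary library from mice housed singly without a wheel. For the untreated library the labels state no treatment, its title names just muscle cells, and how those mice were housed is not given in the sources used here. Neither the number and age of animals per library nor the dates of the sorts are given, so for every library batch and group cannot be told apart.

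Guidance proteins were first studied as cues that attract or repel growing axons, and endothelial cells use many of the same pairs. Class 3 semaphorins are secreted and act through neuropilins, which signal with plexins, while neuropilins also bind VEGF. Ephrin-B2 on arteries and its receptor EphB4 on veins are the textbook pair of arterial and venous identity, netrins bind Unc5 receptors, and Slit proteins bind Robo receptors.

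Counts were unique molecular identifiers (UMIs), so each counted RNA molecule enters once. Of 11715 barcodes, 11529 cells were kept, whose median UMIs per cell were 1586 (untreated), 1133.5 (sedentary) and 1531.5 (running), and between 20 and 32 barcode sequences were shared by each pair of libraries. Cells were clustered without the guidance genes, and clusters were named from other marker genes. Capillary-like cells numbered 1630 untreated, 2670 sedentary and 2059 running. Artery-like cells numbered 1551, 946 and 692, vein-like cells 995, 248 and 255, and lymphatic-like cells 27, 10 and 43. All 10 endothelial markers were detected in the capillary-like, artery-like and vein-like cells of every library. The leukocyte gene Ptprc was at 0 in all 4 classes. Marker sums separated the classes unequally. Levels are given in CPM (a gene's UMIs scaled to a common total of UMIs, within the class and library). Artery markers summed to between 6653 and 7113 CPM in artery-like cells against 2977 to 3894 in capillary-like cells. Vein markers summed to between 5358 and 6606 CPM in vein-like cells against 411 to 551 in capillary-like cells. Capillary markers separated the classes less. They summed to between 24127 and 27438 CPM in vein-like and 20590 to 22383 in artery-like cells, against 30130 to 34756 in capillary-like cells. One capillary-like cluster held 1011 of the untreated cells and only 43 sedentary and 42 running ones, so a different cluster holds most of the untreated capillary-like class than in the other libraries. With 1 library a group there was no test and no replicate check. Intervals are exact 95% Poisson intervals of counts or of their ratios, and cover counting error only.

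Of the 70 rows, 35 had at least 20 UMIs over the 4 classes, and 21 of these had at least 200. Another 26 had between 1 and 19 UMIs: Sema3b, Sema3c, Sema4a, Sema4d, Sema4g, Sema5a, Sema5b, Plxna3, Plxnb1, Plxnb3, Plxnc1, Efna2, Efna3, Efnb3, Epha1, Epha3, Epha5, Epha7, Epha10, Ephb2, Ephb3, Robo1, Robo3, Slit3, Ntn5 and Unc5c. The remaining 9 had none in the 4 classes: Sema3e, Sema4f, Slit1, Slit2, Unc5d, Epha6, Epha8, Plxna4os2 and Plxna4os3. Between the tiers, Ephb6 (28 UMIs), Efna4 (23), Ntn4 (22) and Sema6c (20) were called in no comparison and are not described further. All Slit ligands were therefore at or near 0 (5 UMIs in all, from Slit3), while Robo4, an endothelial Robo receptor, had 3024 UMIs. Together the members made up between 2106 and 3751 CPM of the RNA of capillary-like, artery-like and vein-like cells. UMIs come from the 3' ends of transcripts, and levels are compared below between cells and libraries for 1 gene at a time, not between genes.

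The upstream sequences of 6 members are shown because the results turn on these genes: Sema3g and Efnb2, higher in artery-like cells, Nrp2 and Ephb4, higher in vein-like cells, and Sema3d and Sema3a, higher in lymphatic-like cells. Each is the 250 bases before the RefSeq transcript start (GRCm38.p6), written 5′ to 3′ on the strand of the gene. Capitals mark matches on either strand to the GC box GGGCGG, the ETS core AGGAAG, the SOX core ACAAAG or the RBPJ core TGGGAA.
Sema3g, chr14:31217623-31217872, plus strand: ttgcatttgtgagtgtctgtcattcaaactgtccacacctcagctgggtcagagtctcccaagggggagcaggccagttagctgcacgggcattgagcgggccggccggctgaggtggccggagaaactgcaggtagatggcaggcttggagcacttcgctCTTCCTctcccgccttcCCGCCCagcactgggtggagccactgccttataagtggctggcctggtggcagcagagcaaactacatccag
Efnb2, chr8:8661243-8661492, minus strand: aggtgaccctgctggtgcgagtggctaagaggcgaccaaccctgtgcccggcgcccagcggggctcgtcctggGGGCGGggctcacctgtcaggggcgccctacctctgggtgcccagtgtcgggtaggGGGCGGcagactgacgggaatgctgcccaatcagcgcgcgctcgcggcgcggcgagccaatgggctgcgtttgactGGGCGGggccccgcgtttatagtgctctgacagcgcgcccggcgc
Nrp2, chr1:62703067-62703316, plus strand: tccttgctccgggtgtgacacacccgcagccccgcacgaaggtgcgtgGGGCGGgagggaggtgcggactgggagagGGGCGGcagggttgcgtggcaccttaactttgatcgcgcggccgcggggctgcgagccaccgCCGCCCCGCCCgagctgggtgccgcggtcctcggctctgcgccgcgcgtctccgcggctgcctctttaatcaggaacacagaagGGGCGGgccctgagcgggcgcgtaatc
Ephb4, chr5:137349859-137350108, plus strand: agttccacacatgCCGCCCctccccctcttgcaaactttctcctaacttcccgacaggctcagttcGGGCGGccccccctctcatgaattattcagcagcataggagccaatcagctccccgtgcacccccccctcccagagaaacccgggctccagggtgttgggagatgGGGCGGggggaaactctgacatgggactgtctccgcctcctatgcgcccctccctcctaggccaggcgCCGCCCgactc
Sema3d, chr5:12382916-12383165, plus strand: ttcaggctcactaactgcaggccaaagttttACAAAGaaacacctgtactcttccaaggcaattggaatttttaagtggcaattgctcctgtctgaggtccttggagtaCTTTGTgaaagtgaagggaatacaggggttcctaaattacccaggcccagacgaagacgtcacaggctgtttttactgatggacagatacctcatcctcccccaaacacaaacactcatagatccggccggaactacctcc
Sema3a, chr5:13396534-13396783, plus strand: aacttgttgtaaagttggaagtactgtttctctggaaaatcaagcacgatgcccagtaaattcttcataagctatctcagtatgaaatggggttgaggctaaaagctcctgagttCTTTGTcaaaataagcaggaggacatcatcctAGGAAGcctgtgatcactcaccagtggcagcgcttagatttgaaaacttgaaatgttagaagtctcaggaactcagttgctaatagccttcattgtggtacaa

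The artery and vein genes of this set all held the GC box, with 1 match in Sema3g, 3 in Efnb2, 4 in Ephb4 and 5 in Nrp2, where neighbouring matches overlap. Neither Sema3d nor Sema3a held it, and their windows had G or C at 46.8% and 40.8% of bases, against 60.4% to 72.4% in the other 4. The Sema3a window lies inside the span that GENCODE gives the gene, which starts at base 13125414. Sema3d held the SOX core at 2 places and Sema3a at 1, and Sema3g and Sema3a held the ETS core once each. RefSeq windows were found for 58 of the 70 members (74 windows, since some genes have several starts). Of these, 70.3% held a GC box, against 32.7% of all 32851 windows, and the median share of G or C was 64.4% against 52.4%. The ETS core was in 33.8% of the members' windows and 29.5% of all, the RBPJ core in 17.6% and 21.6%, and the SOX core in 9.46% and 16.5%. These are matches of letters, not measured binding.

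**Figure D1:**
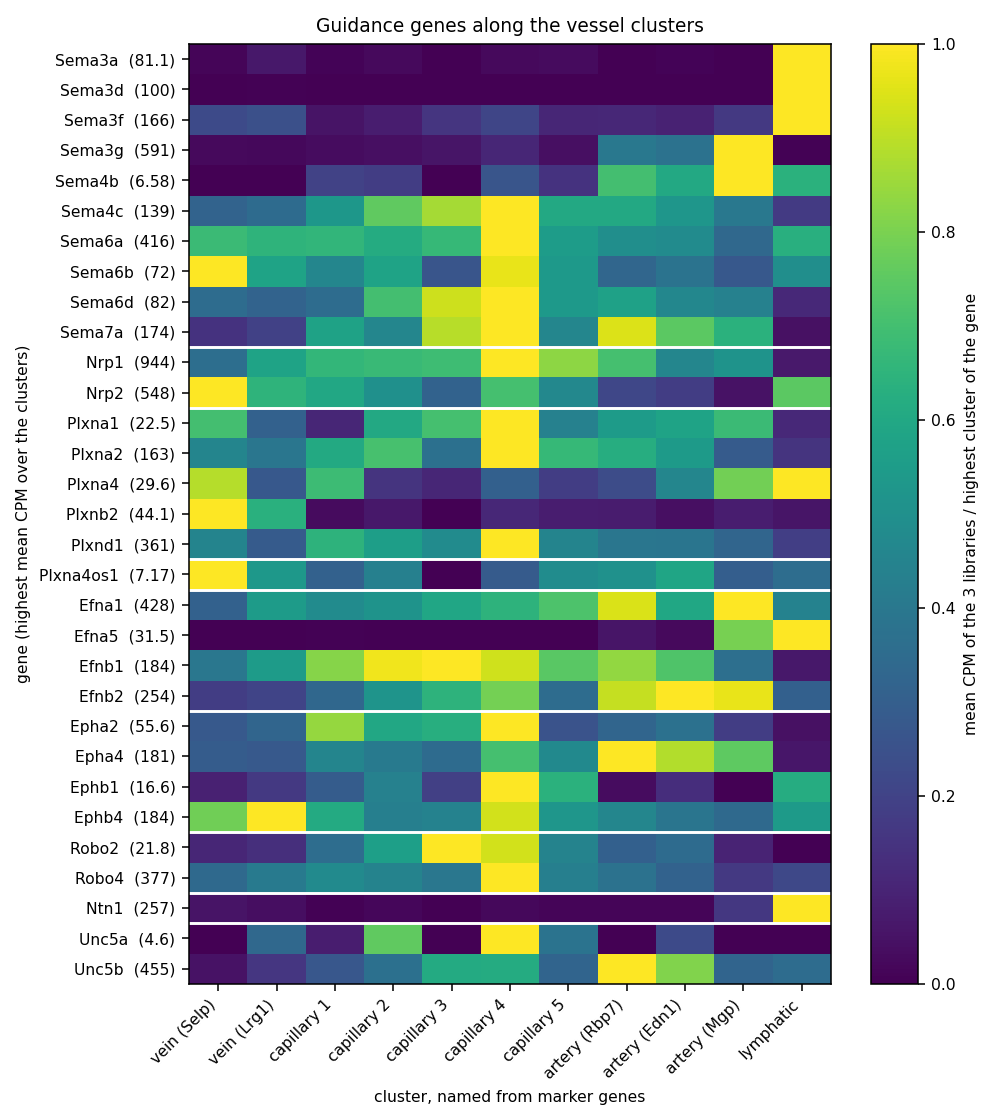
Mean CPM of the 3 libraries in each vessel cluster (columns), divided by the gene's own highest cluster, for the 31 members described with values (rows, grouped by family, with the highest mean CPM beside each name). Vein clusters are on the left, the artery clusters to the right of the 5 capillary clusters, and the lymphatic cluster last: Sema3g peaks in the artery cluster with Mgp, Plxnb2 in the vein cluster with Selp, and Ntn1, Sema3a, Sema3d and Sema3f in the lymphatic cluster.

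Among semaphorins, the secreted ligand gene Sema3g set artery-like cells apart most clearly. It was at 285 CPM in untreated, 255 in sedentary and 246 in running artery-like cells, and at 22.9, 35.2 and 34.7 CPM in capillary-like cells. No artery-like value came near a capillary-like one, and the ratio was 12.4-fold, 7.26-fold and 7.08-fold in the 3 libraries. Within the arterial clusters the highest level was in the cluster marked by Mgp, Gkn3 and Clu, at 624, 534 and 614 CPM, against 251, 227 and 188 in the cluster with Edn1 and Hey1 and 254, 237 and 219 in the one with Rbp7. At least 1 UMI of it was found in 170 of 267 cells of the cluster with Mgp (63.7%, median 1748 UMIs per cell), 957 of all 3189 artery-like cells (30.0%, median 1567) and 270 of 6359 capillary-like cells (4.25%, median 1241). In vein-like cells it was at 12.6, 18.2 and 11.7 CPM, below the capillary-like level of the same library, and in lymphatic-like cells 1 UMI was counted. Running and sedentary artery-like cells differed by -0.06 on the log2 scale (interval -0.27 to 0.16).

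Artery-like cells were compared with capillary-like cells within each library, and a gene was called where it differed at least 2-fold the same way in all 3. This is a description, since both classes are clusters of the same cells. Of 31 members with at least 20 UMIs, 2 were called higher, Sema3g and Efna5, where 2.62% of all genes tested were called higher. Efna5 passed the minimum of UMIs almost only through artery-like cells, and its call was lost without the untreated or the running library. Another 4 were lower (Nrp2, Sema3a, Ephb1 and Unc5a), where 1.88% of all genes were. Of these, Sema3a (2, 0 and 1 UMIs in artery-like cells) and Unc5a (1 in each library) had intervals that include 0 in every library, and their calls were kept in 9 and 6 of 17 settings. The call of Sema3a was lost on leaving out any library, and that of Unc5a without the sedentary or the running one. The members' median log2 ratio was -0.32, against -0.04 for all genes.

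The membrane-bound ligand ephrin-B2, encoded by Efnb2, was also higher in artery-like cells, though not 2-fold in each library. Its level was 343 CPM in untreated, 220 in sedentary and 173 in running artery-like cells, against 130, 138 and 103 CPM in capillary-like and 75.4, 34.7 and 30.0 in vein-like cells. Within a library the order was artery, capillary, vein in each of the 3. The artery to capillary ratio was 2.65-fold, 1.59-fold and 1.68-fold. Its receptor EphB4, encoded by Ephb4, ran the other way. Ephb4 was at 164, 187 and 137 CPM in vein-like cells, 113, 111 and 69.1 in capillary-like cells and 64.8, 85.8 and 75.0 in artery-like cells. Vein-like cells were highest in each library, by 1.45-fold, 1.68-fold and 1.98-fold over capillary-like cells, while artery-like and capillary-like cells kept no fixed order. Neither gene was absent from the opposite vessel class.

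Other ephrin system genes followed different patterns. The ligand gene Efna5 was almost only counted in artery-like and lymphatic-like cells. It had 14, 3 and 5 UMIs in artery-like cells of the untreated, sedentary and running libraries, against 1, 0 and 0 in capillary-like and none in vein-like cells. In the running library this is at least 3.81-fold higher than a floor of 3 UMIs in capillary-like cells. No bound is given for the sedentary library, where both classes were at or under that floor. Of these 22 artery-like UMIs, 16 came from the 267 cells of the cluster marked by Mgp, where 16 cells held 1 each. The receptor gene Epha4 was at 297, 95.1 and 96.4 CPM in artery-like cells, against 125, 49.6 and 49.1 in capillary-like and 94.3, 28.1 and 33.9 in vein-like cells, so its order was artery, capillary, vein in each library. The ligand gene Efna1 was at 257, 366 and 344 CPM in artery-like cells, 191, 283 and 291 in capillary-like and 135, 201 and 188 in vein-like cells, the same order with smaller steps. Efnb1 was lower in vein-like cells, at 97.6, 67.7 and 84.8 CPM against 152, 179 and 169 in capillary-like cells. The receptor gene Ephb1 was higher in capillary-like than in artery-like and vein-like cells, on few counts. It was at 14.3, 7.85 and 7.81 CPM in capillary-like, 2.83, 0.665 and 1.43 in artery-like and 5.80, 0 and 0 in vein-like cells. In lymphatic-like cells it was not lower, with 4 UMIs against 2.31 expected at the capillary level (1.73 times, interval 0.471 to 4.43). Epha2 was at 24.0, 26.7 and 31.3 CPM in capillary-like cells and at 21.8, 14.9 and 14.4 in vein-like cells, lower in each library but 2-fold only in the running one.

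The netrin receptor gene Unc5b, whose product restrains sprouting in vessel development, was higher in artery-like than in capillary-like cells, with a large difference between libraries. Its artery to capillary ratio was 3.06-fold, 1.63-fold and 1.85-fold, so it was not called there. It was at 810 CPM in untreated, 154 in sedentary and 154 in running artery-like cells, at 265, 94.2 and 83.1 in capillary-like cells and at 79.8, 23.1 and 14.4 in vein-like cells. The order artery, capillary, vein was the same in each library, and vein-like cells were lower than capillary-like cells by 3.32-fold, 4.07-fold and 5.79-fold. Along the arteries it was higher in the cluster with Rbp7 (984, 175 and 206 CPM) than in the cluster with Mgp (284, 51.7 and 102), the reverse of Sema3g. In the cluster with Mgp it was below the capillary-like level in the sedentary library and little above it in the others. Its relative Unc5a had 30 UMIs in all, 25 of them in capillary-like cells.

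**Figure D2:**
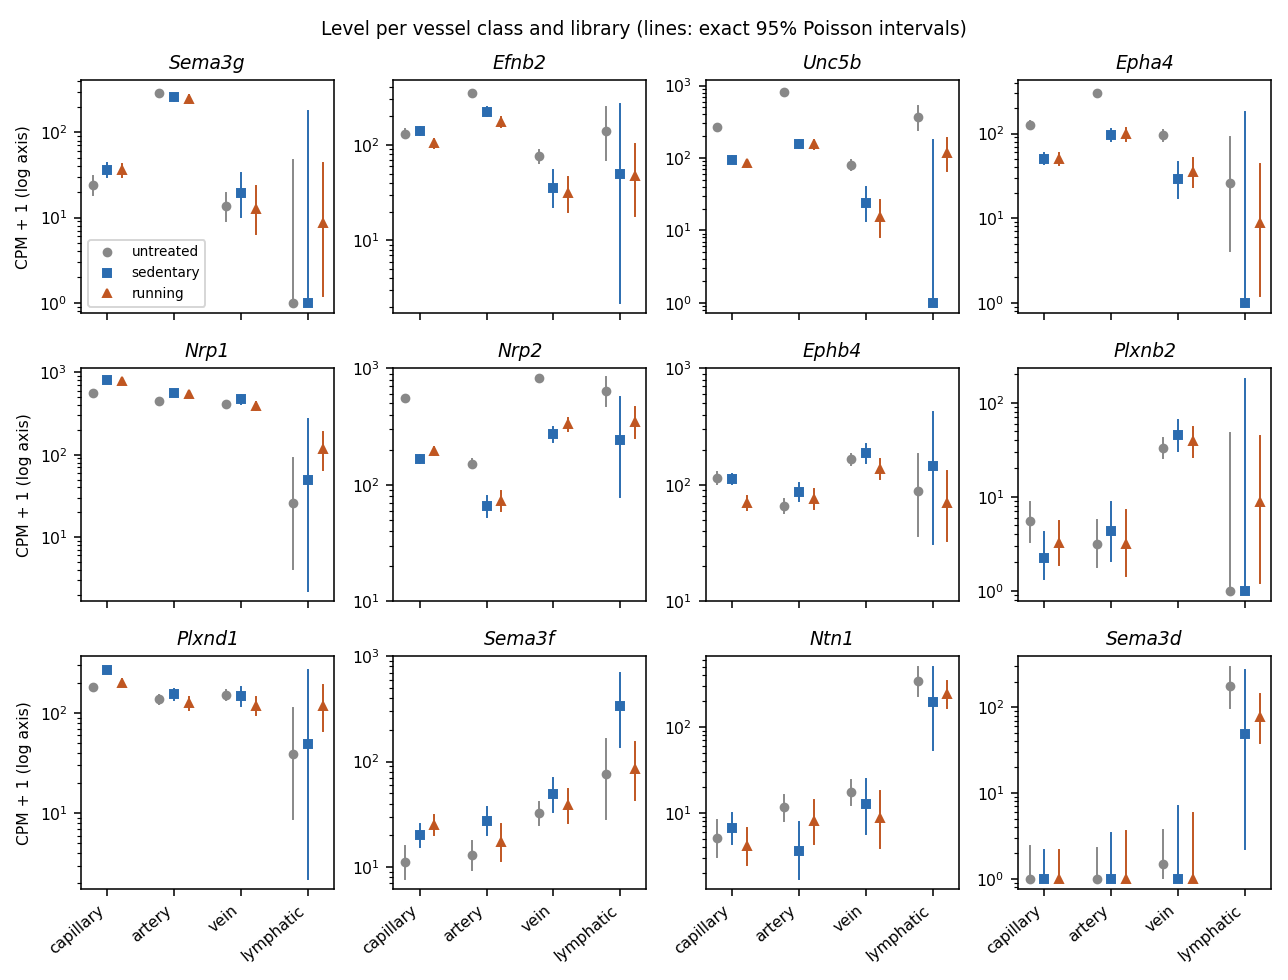
Level of 12 members as CPM + 1 on a log axis, by vessel class and library (grey circles untreated, blue squares sedentary, orange triangles running), with exact 95% Poisson intervals. The artery-high genes Sema3g, Efnb2, Unc5b and Epha4, the vein-high Nrp2, Ephb4 and Plxnb2 and the lymphatic-high Sema3f, Ntn1 and Sema3d stand above capillary-like cells in every library, while the untreated library is highest for Unc5b, Epha4 and Nrp2 in each blood vessel class.

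Neuropilins, the coreceptors for class 3 semaphorins and VEGF, split by vessel. Nrp1, which had the most UMIs of all members (10870), was at 560, 803 and 779 CPM in capillary-like cells in the untreated, sedentary and running libraries. Its level was 444, 569 and 554 CPM in artery-like and 408, 471 and 394 in vein-like cells. Capillary-like cells were highest in each library, but by less than 2-fold. Nrp2 was at 820, 271 and 330 CPM in vein-like cells, 551, 166 and 196 in capillary-like and 151, 64.5 and 72.1 in artery-like cells. Of the blood vessel classes, vein-like cells were highest and artery-like cells lowest in each library, and artery-like cells were below capillary-like cells by 3.64-fold, 2.57-fold and 2.71-fold. In the artery cluster with Mgp, Nrp2 was at 15.8, 17.2 and 44.8 CPM, while in the vein cluster marked by Selp, Vcam1 and Nr2f2 it was at 948, 325 and 371.

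In vein-like against capillary-like cells, 30 members were tested. Called higher were 2, Ntn1 and Plxnb2, where 3.04% of all genes were, and 5 were lower (Sema4b, Unc5b, Sema7a, Ephb1 and Robo2), where 1.56% of all genes were. Sema4b had no UMI in vein-like cells against 7, 7 and 6 in capillary-like cells, too few for a bound in the sedentary and running libraries, and its call was kept in 9 of 17 settings and lost on leaving out any library. For Ntn1 the interval includes 0 in the sedentary and running libraries. The median was -0.60 against -0.14 for all genes, so most members were lower in vein-like than in capillary-like cells. Plxnb2, a plexin that serves as receptor for class 4 semaphorins, was the clearest vein gene. It was at 31.9, 44.6 and 37.8 CPM in vein-like cells, against 4.51, 1.26 and 2.19 in capillary-like and 2.12, 3.33 and 2.14 in artery-like cells. All 3 vein-like values lay above all values of the other blood vessel classes, with ratios to capillary-like cells of 7.08-fold, 35.5-fold and 17.3-fold, the second resting on 4 capillary UMIs. In vein-like cells smooth muscle markers also summed higher (471, 677 and 689 CPM) than in capillary-like cells (85.3, 93.2 and 73.8). Of the 6 markers, 4, 3 and 5 were detected in vein-like and 4, 4 and 5 in capillary-like cells. Lmod1 was at 0 in vein-like cells of every library, and Tagln was among the leading genes of the vein cluster with Lrg1. A separate small cluster was led by Gsn, Acta2 and Dcn, markers of mural cells and fibroblasts. It had 32.5 CPM of Plxnb2 as a mean of the libraries, on 3, 1 and 5 UMIs. The part of such cells in the vein value was not tested, and pericyte markers were lower in vein-like (66.0 to 95.2 CPM) than in capillary-like cells (145 to 219 CPM).

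Other members leaned to vein-like cells but were not called higher there. Sema3f, a secreted semaphorin that signals through neuropilin-2, was at 31.4, 47.9 and 37.8 CPM in vein-like against 10.1, 19.2 and 24.1 in capillary-like cells. It was above the capillary level in each library, by 3.10-fold, 2.50-fold and 1.57-fold, but was not called. In the running library the interval of the log2 ratio was -0.02 to 1.29. Sema6b, a transmembrane semaphorin, was at 59.0, 61.1 and 60.0 CPM in vein-like, 32.3, 50.5 and 47.8 in capillary-like and 18.1, 28.6 and 30.0 in artery-like cells. It was not called either, and its vein to capillary interval includes 0 in the sedentary and running libraries. Plxna4, a plexin for class 3 and class 6 semaphorins, was at 31.9, 14.9 and 9.13 CPM in vein-like against 6.76, 6.28 and 7.50 in capillary-like cells, a gap that was wide only in the untreated library. Sema5b, chosen after its values were seen because it falls under 20 UMIs, had 10, 4 and 4 of its 19 UMIs in vein-like cells and 1 in capillary-like cells. Sema7a, a lipid-anchored semaphorin, was the reverse, at 33.8, 23.1 and 24.8 CPM in vein-like, 92.4, 111 and 91.9 in capillary-like and 153, 150 and 121 in artery-like cells.

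Plxnd1, Robo4, Sema6a and Sema6d were called in neither artery-like nor vein-like against capillary-like cells. Plxnd1, the receptor for Sema3e, was at 179, 269 and 200 CPM in capillary-like, 137, 154 and 125 in artery-like and 151, 147 and 117 in vein-like cells. Robo4 was at 162, 255 and 192 CPM in capillary-like, 112, 130 and 123 in artery-like and 131, 155 and 130 in vein-like cells. Both had their highest class value in sedentary capillary-like cells. The transmembrane semaphorin gene Sema6a was at 337, 280 and 256 CPM in capillary-like, 213, 200 and 181 in artery-like and 307, 244 and 286 in vein-like cells. Its relative Sema6d was at 40.9, 58.4 and 57.5 CPM in capillary-like cells and between 19.6 and 45.2 in the others. Robo2, a Slit receptor gene, was at 8.64, 13.2 and 11.3 CPM in capillary-like, 8.50, 3.99 and 8.57 in artery-like and 2.90, 3.30 and 1.30 in vein-like cells, so vein-like cells were lowest in each library and the gene was called lower there. Sema4b, also called lower in vein-like cells, had 20 UMIs in capillary-like, 27 in artery-like and 0 in vein-like cells. Plxna1, a plexin for class 3 and class 6 semaphorins, was between 9.18 and 18.8 CPM in all 3 classes. Among the vessel clusters, several described members had their highest mean in 1 capillary-like cluster, with Nrp1 at 944, Robo4 at 377 and Plxnd1 at 361 CPM there. How many of all genes have their highest mean in that cluster was not counted. Its cells were shallow, with a median UMI count of 682 against 1430 to 1581 in the other capillary-like clusters, and it also had the highest score for endothelial markers as a whole. The relation of these levels to its low UMI count was not tested. It held 179 untreated, 1114 sedentary and 466 running cells, a mix that bears on the running comparison below.

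Lymphatic-like cells, led by Ccl21a, Lyve1 and Mmrn1 numbered 80. Because they are so few, UMIs observed in them were set against those expected at the capillary level of the same library, summed over libraries. Of 30 members tested, 6 were called at least 2-fold higher, where 10.1% of all genes were, and 12 at least 2-fold lower, where 15.6% of all genes were. The members' median log2 ratio was -0.23, against 0.02 for all genes, with genes at 0 on one side entered at a floor of 3 UMIs.

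The members called higher were Ntn1, Sema3d, Sema3a, Sema3f, Plxna4 and Sema4b. Ntn1, encoding the secreted ligand netrin-1, was at 340 CPM in untreated, 193 in sedentary and 238 in running lymphatic-like cells (27, 4 and 31 UMIs), and between 3.13 and 5.65 CPM in capillary-like cells. The 62 UMIs were 72.8 times those expected (interval 55.8 to 93.3) and lay in 36 of 80 cells (45%, median 2454.5 UMIs per cell), against 39 of 6359 capillary-like cells (0.613%, median 1241). Among the blood vessel clusters Ntn1 had its highest mean of the libraries in the artery cluster with Mgp, at 79.0, 8.62 and 38.4 CPM (20, 1 and 6 UMIs), though not in the sedentary library. It was also above the capillary level in vein-like cells, at 16.4, 11.6 and 7.83 CPM.

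Sema3d, a secreted semaphorin, was counted with 14, 1 and 10 UMIs in untreated, sedentary and running lymphatic-like cells, in 22 of 80 cells. It had 0 UMIs in capillary-like and artery-like cells and 1 in vein-like cells. Set against a floor of 3 UMIs over all capillary-like cells, the lymphatic level was at least 328-fold higher. Sema3d passed the minimum of UMIs only through lymphatic-like cells. Its call was kept in 11 of 15 settings, and was lost when thinned and without the untreated or the running library. Sema3a, the founding class 3 semaphorin and a ligand in lymphatic valve formation, had 16 UMIs against 0.631 expected (25.4 times, interval 14.5 to 41.2), with 8, 2 and 6 in the 3 libraries. Sema3f had 24 against 4.33 (5.54 times, 3.55 to 8.24), and its CPM of 75.5, 338 and 84.6 rests on 6, 7 and 11 UMIs. The receptor gene Plxna4 had 9 against 1.64 (5.48 times, 2.51 to 10.4), none of them in the sedentary library. Sema4b was called on a single UMI against 0.498 expected (interval 0.051 to 11.2) and kept that call in 4 of 15 settings. Sema3d and Sema3a are the 2 members whose upstream windows lacked the GC box among those printed above. This does not hold for all the members called higher here, since Sema4b had 2 matches in each of its 2 windows. For Ntn1, Sema3f and Plxna4 no window was found.

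Lower in lymphatic-like cells were Nrp1 and much of the blood vessel repertoire. Nrp1 had 2, 1 and 15 UMIs, 18 in all against 162 expected (0.111 times, 0.066 to 0.175). The other neuropilin gene, Nrp2, was not lower, with 101 UMIs against 72.7 (1.39 times, 1.13 to 1.69) and 642, 241 and 346 CPM. Efnb1 had 4 UMIs against 37.7 (0.106 times), Sema7a 3 against 21.6 (0.139), Sema4c 4 against 24.7 (0.162) and Epha4 3 against 17.3 (0.173). Plxnd1, Robo4 and Plxna2 were lower by 2.41-fold, 2.39-fold and 2.79-fold, with intervals of the ratio below 1. Sema6d was lower on 3 UMIs. The calls of Sema3g, Epha2 and Plxna1 rest on 1 UMI each, all in the running library, and without that library no UMI of them is left and no fold is given. Ephb4 (0.938 times, 0.564 to 1.46), Sema6a (0.896, 0.682 to 1.16) and Unc5b (1.30, 0.946 to 1.75) were near the capillary level, though Unc5b had 29, 0 and 15 UMIs. Scaling by TMM, which corrects for differences in RNA composition, would move the lymphatic to capillary log2 ratio by -0.26, -0.58 and -0.01 in the untreated, sedentary and running libraries.

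**Figure D3:**
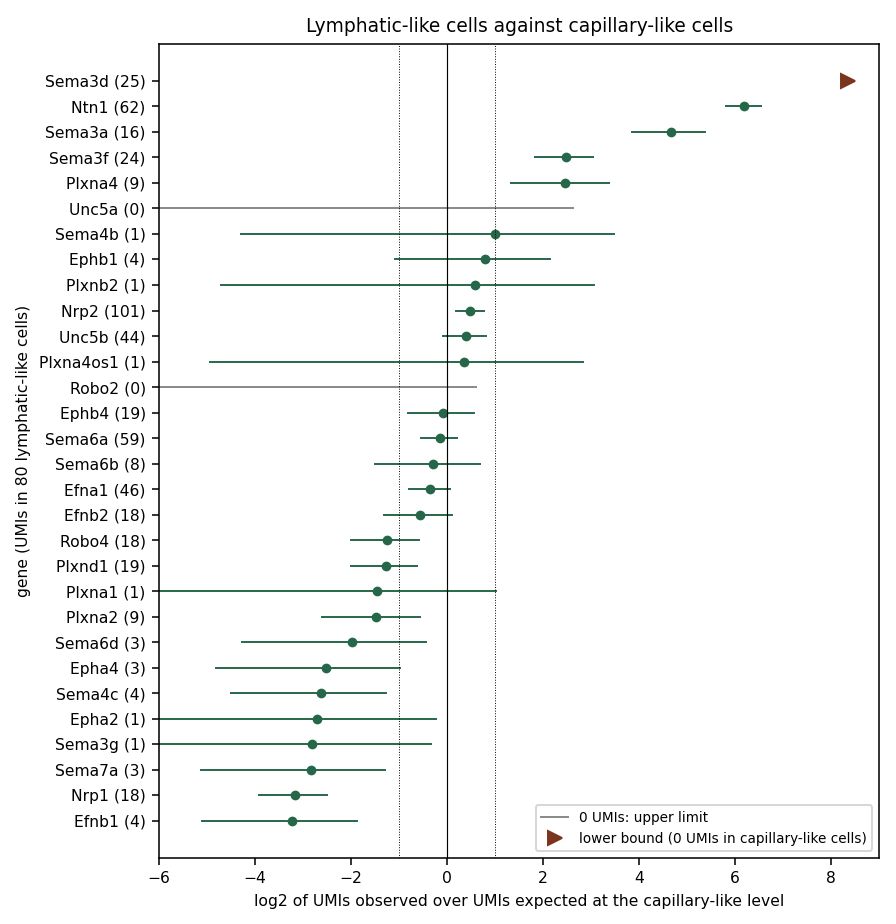
UMIs observed in the 80 lymphatic-like cells over UMIs expected at the capillary-like level of each library, as log2, for the 30 members tested, with exact 95% Poisson intervals of the observed count and dotted lines at 2-fold. Sema3d is drawn as a lower bound, Ntn1, Sema3a, Sema3f and Plxna4 lie right of 2-fold with their intervals, and Nrp1 and Efnb1 are among those farthest left.

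The running library was then compared with the others to see how guidance genes stood after voluntary exercise. A gene was called where its log2 ratio of running to each of the other libraries was at least 0.32 in size and of the same sign. The 2 ratios share the running library. In capillary-like cells 29 members were tested. Called lower were 4 (Ephb4, Efnb2, Plxna2 and Ntn1), where 6.81% of all genes were, and 3 were called higher (Sema4c, Sema3f and Sema3a), where 8.72% of all genes were. The members' median log2 ratio to sedentary was -0.08, against -0.01 for all genes.

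Ephb4 gave the clearest difference. In capillary-like cells it was at 113 CPM in untreated, 111 in sedentary and 69.1 in running cells. The running value lay below both others, whose counting intervals overlap. The log2 ratio was -0.68 against sedentary (interval -0.94 to -0.44) and -0.71 against untreated (-0.97 to -0.46). The call held in all 17 settings tried. It was -0.33 when the 3 capillary-like clusters with at least 100 cells of both libraries were weighted equally, since running and sedentary were at 50.7 and 74.4 CPM in 1 large cluster and 67.6 and 105 in another, but 158 and 167 in the cluster of low UMI count. In vein-like cells Ephb4 was also lowest in the running library (137 against 187 and 164 CPM), with log2 ratios of -0.45 (-0.84 to -0.05) and -0.26 (-0.59 to 0.06), and in artery-like cells running lay between the other libraries.

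The EphB4 ligand gene Efnb2 was lower in running capillary-like cells as well, at 103 CPM against 138 and 130 (log2 ratio -0.42, -0.63 to -0.22, and -0.33, -0.55 to -0.11). In artery-like cells, where its level is higher, running was at 173 against 220 and 343 CPM (-0.35, -0.59 to -0.11, and -0.99, -1.20 to -0.79). Running was below both other libraries in each class, but on few UMIs outside these 2 classes. Running and sedentary had 23 and 21 UMIs in vein-like cells, and 6 and 1 in lymphatic-like cells. Among capillary-like clusters with many cells of both, running and sedentary were at 102 and 138, 163 and 211, and 78.2 and 93.0 CPM. The capillary call was lost in 4 of 17 settings, with -0.07 when cells were thinned to 1000 UMIs each and -0.29 without the cluster of low UMI count. With clusters weighted as for Ephb4 it was -0.36, and the call held.

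Plxna2, a plexin for class 3 and class 6 semaphorins, was at 97.2 CPM in running against 128 in sedentary and 124 in untreated capillary-like cells (log2 ratio to sedentary -0.40, -0.62 to -0.19). It was also lowest in running artery-like cells, at 64.3 against 86.5 and 115 CPM (-0.43, -0.83 to -0.03). The artery call was kept in 15 of 16 settings and the capillary call in 12 of 17. With clusters weighted as for Ephb4 the capillary call was lost, as it was without the cluster of low UMI count. In the clusters so weighted, running and sedentary were at 86.6 and 106, 183 and 203, and 84.2 and 104 CPM. Plxnd1 and Robo4 were lower than sedentary in capillary-like cells (-0.43, -0.58 to -0.28, and -0.41, -0.56 to -0.25) but not lower than untreated (0.16 and 0.25), so the sedentary library was the high one for both.

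Sema4c, a transmembrane semaphorin that binds plexin-B2, was the best counted member called higher in running capillary-like cells, at 123 CPM against 96.1 in sedentary and 83.4 in untreated cells (0.36, 0.14 to 0.58). It went the other way in vein-like cells, at 32.6 against 44.6 and 59.9 CPM, on 25, 27 and 124 UMIs. The capillary call was kept in 9 of 17 settings. Sema3f was at 24.1 against 19.2 and 10.1 CPM (0.33, -0.17 to 0.84) and Sema3a at 3.13 against 2.20 and 2.25 CPM on 23 UMIs, and for both the interval against sedentary includes 0. Lymphatic markers in capillary-like cells summed to 170 CPM in running, 78.2 in sedentary and 51.8 in untreated, and both genes are higher in lymphatic-like cells. The part of lymphatic RNA in these values was not tested. The lymphatic-high Ntn1 was lower in running capillary-like cells, at 3.13 against 5.65 and 4.13 CPM on 39 UMIs (-0.82, -2.13 to 0.34). Nrp1 was not called, with a log2 ratio of running to sedentary capillary-like cells of -0.04 (-0.12 to 0.04), nor were Sema3g (-0.02, -0.41 to 0.37) and Efna1 (0.04, -0.10 to 0.17).

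In artery-like cells 26 members were tested. Called lower were 4 (Efnb2, Plxna2, Plxna4 and Sema4b), where 8.84% of all genes were, and 1 was called higher (Plxna4os1), where 10.7% of all genes were. Plxna4 had 7 UMIs in 692 running, 30 in 946 sedentary and 29 in 1551 untreated cells (-1.92, -3.43 to -0.78, against sedentary). The antisense Plxna4os1 had 7, 5 and 9 UMIs in the same cells. Its call was kept in 6 of 16 settings, and its annotated exons overlap none of Plxna4. Sema4b was called on 27 UMIs and kept the call in 8 of 16 settings. In vein-like cells 24 members were tested, with none called higher, where 11.3% of all genes were, and 6 lower (Sema4c, Sema6d, Plxna4, Plxnd1, Unc5b and Ntn1), where 13% of all genes were. The median was -0.22 against -0.01. With 248 sedentary and 255 running cells, the interval against sedentary includes 0 for each of the 6. Plxnd1 had the most UMIs of these, at 117 against 147 and 151 CPM (-0.32, -0.76 to 0.12).

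**Figure D4:**
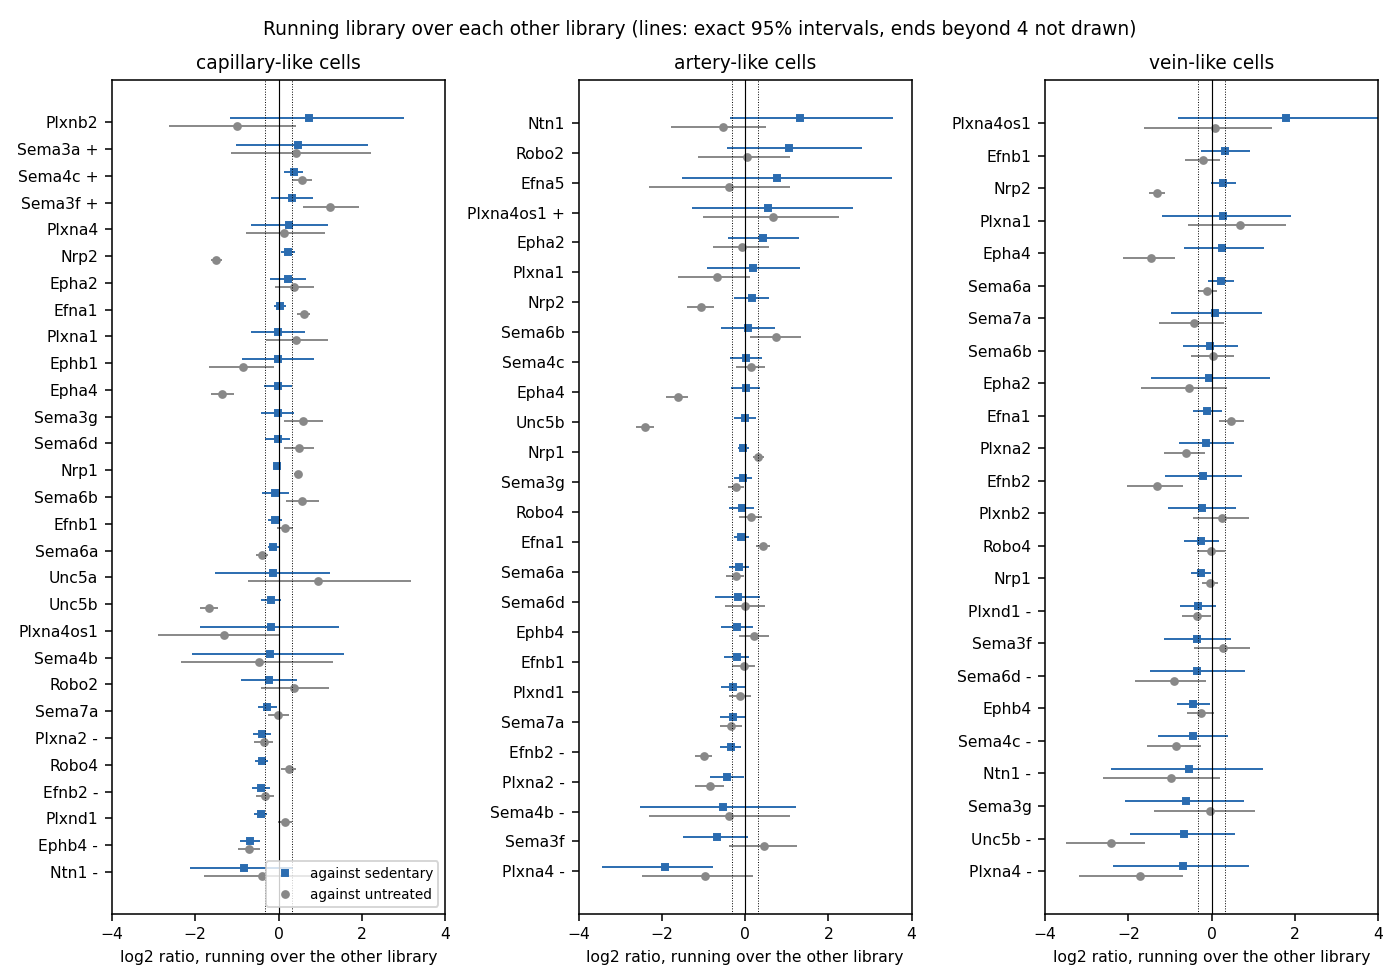
Log2 ratios of the running library to the sedentary (blue squares) and untreated (grey circles) libraries for the members tested in capillary-like, artery-like and vein-like cells, with exact 95% intervals and dotted lines at the call limit of 0.32. A plus or minus marks a member called higher or lower against both: Ephb4, Efnb2 and Plxna2 lie left of the line against both libraries in capillary-like cells, while Nrp2, Epha4 and Unc5b lie far to the left against untreated in each class.

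The largest differences among libraries were between the untreated library and both others. Of the members tested, 5 of 29 in capillary-like cells were at least 2-fold higher in the untreated than in both singly housed libraries (Unc5b, Nrp2, Epha4, Plxna4os1 and Plxnb2), where 2.03% of all genes were. Plxna4os1 (15, 8 and 7 UMIs) and Plxnb2 (12, 4 and 7) rest on few UMIs, and an interval against 1 of the other libraries includes 0 for Plxnb2 and against both for Plxna4os1. In artery-like cells these were 3 of 26 (Unc5b, Nrp2 and Epha4), where 1.99% of all genes were, and in vein-like cells 5 of 24 (Unc5b, Nrp2, Epha4, Efnb2 and Plxna4), where 2.14% of all genes were. None was at least 2-fold lower in any of the 3 classes, where 3.23%, 1.84% and 1.35% of all genes were. The log2 ratio of untreated to sedentary was 1.49 for Unc5b, 1.73 for Nrp2 and 1.33 for Epha4 in capillary-like cells. It was 2.40, 1.22 and 1.64 in artery-like cells and 1.74, 1.60 and 1.71 in vein-like cells. Running and sedentary differed by at most 0.28 on this scale for Nrp2, and by at most 0.26 for Epha4, in these classes. For Unc5b the log2 ratio of running to sedentary was -0.18 in capillary-like and 0.00 in artery-like cells, and -0.67 (-1.97 to 0.56) in vein-like cells, where it was called lower.

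Several members stood lower in the untreated library in capillary-like cells, by less than 2-fold: Nrp1 (-0.52 against sedentary), Efna1 (-0.57), Plxnd1 (-0.59), Robo4 (-0.65) and Sema6b (-0.64). TMM scaling would raise the untreated to sedentary log2 ratio by 0.12 in capillary-like, 0.07 in artery-like and 0.05 in vein-like cells. Early-response genes, which tissue digestion can induce, summed to 32336 CPM in untreated, 20041 in sedentary and 28266 in running capillary-like cells. Erythrocyte markers summed to 110, 1030 and 700 CPM. In artery-like cells the early-response sums were 29800, 24935 and 26886 CPM, and in vein-like cells 27513, 20601 and 24335. The part of digestion, batch or housing in the untreated levels was not tested and, with 1 library each, these cannot be told apart.

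Partner genes were taken from a list of 82 coreceptors, ligands and signalling proteins of these pathways, of which 80 were in the files. In running capillary-like cells 57 were tested, with 1 higher (Pick1, a scaffold that binds Eph receptors; 1.75% against 8.72% of all genes) and 5 lower (Vegfa, Flrt2, Rnd2, Arhgef15 and Rasa1; 8.77% against 6.81%). Arhgef15 encodes a signalling protein of endothelial cells that acts downstream of Eph receptors. It was at 302 CPM in running against 387 in sedentary and 424 in untreated cells, log2 ratios of -0.36 and -0.49. Rasa1, a Ras inactivator that acts with EphB4 in vessels, was at 64.1 against 83.5 and 97.6 CPM, ratios of -0.38 and -0.61. Vegfa, a neuropilin ligand, and Flrt2, an Unc5 ligand, were low in running (1.88 and 5.31 CPM) and sedentary cells (2.51 and 6.91) and higher in untreated cells (8.26 and 21.8). In artery-like cells 54 were tested, with 4 higher (7.41% against 10.7% of all genes) and 4 lower (7.41% against 8.84%). In vein-like cells 52 were tested, with 3 higher (5.77% against 11.3%) and 9 lower (17.3% against 13%). These shares are near or under those of all genes. In vein-like cells the lower ones included the netrin receptor gene Neo1, on 20 UMIs.

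Among partners that bind neuropilins, Kdr, the VEGF receptor that pairs with neuropilin-1, was at 902, 1322 and 1251 CPM in capillary-like and 424, 378 and 368 in vein-like cells. Flt4, the VEGF-C receptor that pairs with neuropilin-2, was at 856, 290 and 523 CPM in lymphatic-like cells against 45.8, 61.8 and 70.6 in capillary-like cells. Both were among the markers that named the clusters, so their placement is no finding. The Unc5 ligand gene Flrt2 was at 32.4, 16.5 and 17.0 CPM in vein-like, 21.8, 6.91 and 5.31 in capillary-like and 1.77, 3.33 and 2.14 in artery-like cells, the reverse of its receptor gene Unc5b in each library. Of 61 partners tested in artery-like against capillary-like cells, 3 were higher (Met, Vegfc and Vegfd, of which Vegfc is an artery marker) and none lower, against 2.62% and 1.88% of all genes. In vein-like cells 7 of 61 were higher (11.5% against 3.04%) and 3 lower (4.92% against 1.56%), with Kdr among the lower ones. In lymphatic-like cells 13 of 58 were higher (22.4% against 10.1%) and 14 lower (24.1% against 15.6%), with marker genes among both.

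Some members overlap a neighbouring gene, whose reads the count could mix with theirs. By GENCODE M21, exons of Ephb4 overlap Zan, those of Sema4c D430040D24Rik and those of Plxna1 Gm26811, each on the other strand, and an Nrp1 exon overlaps the microRNA gene Mir1903 on the same strand. In all, 15 of 70 members overlapped an exon on the other strand and 3 on the same strand.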

How the data were processed

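Single-cell RNA of 3 libraries was deposited by the authors as matrices of raw UMI counts per gene and barcode. Cell Ranger 2.0.2 and GRCm38.p5 are named per the submitters' processing notes, and the annotation release and strand setting are not given in the sources used here. Barcodes with at least 300 genes and at most 10% mitochondrial UMIs were kept, and 2 fibre-rich and 23 erythrocyte-rich barcodes (5% or more of UMIs from those markers, a limit chosen after seeing the data) were left out. Cells were scaled to 10000 UMIs and clustered in scanpy 1.11.5 (2000 variable genes without guidance genes, 30 components, 15 neighbours, Leiden resolution 1). Clusters were named from mean marker scores (log2, centred over clusters): lymphatic at a score of 1.0 or more, and otherwise the best vessel class at 0.3 or more with endothelial markers not below -0.5 and other types under 1.0, limits set after seeing the data. Clusters that met none stayed unnamed. Scrublet marked 0 of 11529 cells, which is no working filter, and doublets were not removed.

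UMIs were summed per class and library. Log2 ratios used CPM with a prior count of 0.5, and intervals came from scipy 1.17.1. Genes with at least 20 UMIs in a comparison were called, at 1.25-fold (0.32 as log2) between libraries and 2-fold between classes. The calling code was tested on simulated data. Members with at least 200 UMIs or any call are described with values. The members, the partner list and the markers were chosen with earlier results of these data known. TMM factors came from edgeR 4.0.16 (no test was run), overlaps from GENCODE M21 and upstream sequences from RefSeq. Alternatives changed the clustering genes and resolution, the cell filters, the depth, the minimum of UMIs, the fold, the prior count, the scaling and the libraries or clusters compared.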

Additional observations from a re-analysis of the deposited data

Results flagged for a closer look

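In a cluster that was left unnamed, led by Penk and Itm2a (59 untreated, 44 sedentary and 33 running cells), Sema7a and Sema3f stood above capillary-like cells in data that no comparison used. Sema7a was at 293, 292 and 207 CPM there, on 43, 29 and 23 UMIs, against 92.4, 111 and 91.9 in capillary-like cells. The smallest of its log2 ratios over the 3 libraries was 1.20 with the prior count. Sema3f was at 102, 171 and 44.9 CPM, on 15, 17 and 5 UMIs, against 10.1, 19.2 and 24.1. Its smallest log2 ratio was 1.03, in the running library, where the 5 UMIs alone, without the prior count, lie under 2-fold.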

How the results depend on the processing

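No paired analysis was possible because each group is 1 library and its replicate number only names it. Of 196 counts of members called under alternatives, 128 stayed within 1.5 times of the main count. Counts that moved are given by setting. In running capillary-like cells, members called higher (main 3) were 0 with early-response genes left out of clustering or at Leiden resolution 0.5, 1 at resolution 1.5, with each library clustered alone, without the highest 5% of doublet scores or with a prior count of 2, 13 with no minimum of UMIs and 0 at 1.5-fold. Members lower (main 4) were 2 at 500 genes per cell or without the cluster of low UMI count, 1 when thinned to 1000 UMIs or at 1.5-fold and 7 with no minimum. In running artery-like cells, higher (main 1) were 0 with early-response genes out, at resolution 0.5 or 1.5, at 500 genes, without top doublet scores, at 100 UMIs or at 1.5-fold, 2 with libraries clustered alone or thinned, and 5 with no minimum. Lower (main 4) were 2 at 100 UMIs and 1 at 1.5-fold. In running vein-like cells, higher (main 0) were 1 at resolution 0.5 or 1.5, with libraries alone, at 500 genes or without top doublet scores, and 6 with no minimum. Lower (main 6) were 3 at 500 genes, 11 with no minimum and 2 at 1.5-fold. Added after seeing the data, running against untreated alone gave 12 higher and 12 lower in capillary-like, 4 and 11 in artery-like and 2 and 12 in vein-like cells, and against sedentary alone 5 higher in artery-like and 1 in vein-like cells.

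In artery-like against capillary-like cells, higher (main 2) were 1 at 100 UMIs and 5 with no minimum, and lower (main 4) were 2 with libraries alone, thinned, at 3-fold or with a prior count of 2, and 1 at 100 UMIs. Leaving out 1 library gave 1 to 3 higher and 2 to 3 lower. In vein-like cells, higher (main 2) were 1 at resolution 1.5, without top doublet scores, at 100 UMIs, at 3-fold or, added after seeing the data, without the cluster nearest to capillary, 12 with no minimum and 2 to 4 with 1 library left out. Lower (main 5) were 8 with early-response genes out or at resolution 0.5, 3 thinned and 1 at 3-fold. In lymphatic-like cells, higher (main 6) were 3 thinned, 2 at 100 UMIs and 10 with no minimum, and lower (main 12) were 6 thinned. The prior count of 2 gave no value there, since that ratio uses none, and leaving out a library was run for class comparisons only.

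Ratios that reversed rest on few UMIs. In running vein-like cells they were Sema6d (0.094 at resolution 1.5, 0.15 at 500 genes), Sema4c (0.033 at 500 genes) and Unc5b (0.83 thinned). In lymphatic-like cells they were Epha2 (0.58 thinned, and from -2.58 to 0.28 with 1 library left out), Plxna1 (1.55, and from -1.31 to 1.52) and Sema3g (0.69, and from -2.66 to 0.24). Without the running library no UMI of these remained and the value is that of the floor of 3 UMIs. The cause of the other changes was not tested. Depth limits the lymphatic values, where 1 UMI is worth 12.6 CPM untreated, 48.3 sedentary and 7.69 running.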
